A study of Homo sapiens with 12 samples.

Results

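Oxidative phosphorylation rests on 5 enzyme complexes of the inner mitochondrial membrane. Complexes I and II pass electrons from NADH and succinate to coenzyme Q, complex III passes them on to cytochrome c, and complex IV, cytochrome c oxidase, hands them to oxygen. Proton pumping along the chain drives complex V, the ATP synthase. Most subunits are encoded in the nucleus and imported, and a small core of complexes I, III, IV and V is encoded in mitochondrial DNA. Transcripts of the nuclear genes were followed here. They were chosen by symbol: NDUFA, NDUFB, NDUFC, NDUFS or NDUFV followed by a digit, NDUFAB1, SDHA to SDHD, symbols starting with UQCR, CYC1, COX followed by a digit, and symbols starting with ATP5. The rule found 95 of the 16384 genes in the count tables: 37 of complex I, 4 of complex II, 10 of complex III, 16 of complex IV, 9 COX-named assembly factors of complex IV, and 19 of complex V. NDUFA4, named after complex I, and its paralog NDUFA4L2 were counted with complex IV, in which the NDUFA4 protein is known to reside. The mitochondrially encoded core, COX4I2, COX6A2 and COX7A1 were not analysed here. Of the 95 genes, 90 passed the expression filter. The other 5 had between 6 and 37 counts over all 12 libraries: COX6B2, COX7B2 and COX8C, known as testis isoforms, NDUFA4L2, and ATP5MGL, a relative of ATP5MG. COX8C had 0 counts in all CAR and all DMSO libraries, where 3 counts, taken as the floor of a library, correspond to 0.147 to 0.159 normalised CPM.

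RNA had been sequenced from MDA-MB-231, an established triple-negative breast cancer line labelled wild type, in 4 groups of 3 libraries. Cells of the CAR group were given 10 µmol/L CAR, read from the series title as cardamonin, a plant chalcone. Cells of the JQ1 group were given JQ1, an inhibitor of the BET bromodomain proteins that read acetylated chromatin, at 25 µmol/L. The Combination group received both agents, and the control group received the solvent DMSO. The time of treatment is not given in the sources used here. Levels are CPM on the TMM-scaled library size, called normalised CPM, and changes are log2 fold changes ± standard error from edgeR's quasi-likelihood test, with a call where the p adjusted by Benjamini-Hochberg over all 12645 genes tested was under 0.05. Gene positions are those of GENCODE v29 on GRCh38. In bulk libraries scaled in this way, less RNA of a gene per cell and a change in the total RNA of the cell cannot be told apart. The labels do not say whether the 3 libraries of a group came from separate cultures, so the p-values measure the spread between these libraries, which may be technical.

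Depth lay between 17449715 and 19754456 counts. DMSO replicate 3 stood apart from the other DMSO libraries. Its deviation from them ran against transcript length across 6192 genes (Spearman rho = -0.64), and the 90 tested members sat a median of 0.24 log2 units above the other DMSO libraries in it, against -0.09 and -0.11 for DMSO replicates 1 and 2, and values between -0.03 and 0.03 in the 9 drug-treated libraries. The tested members are short transcripts, with a median of 714.5 bases, against 2304 bases over all genes tested. The part of DMSO replicate 3 in single results was measured by leaving it out, and the counts over all members against DMSO are also given without it. Combination replicate 1 held 132 normalised CPM over 10 liver markers, against 1.34 to 3.57 in the other 11 libraries. All 10 had counts in at least 1 library. Their part in the results was not tested, and leaving that library out reversed none of the calls on the named members. The line's markers VIM, CD44, AXL and CAV1 summed to 5097 to 5189 normalised CPM in CAR and 5172 to 5320 in DMSO. Their sums were lower in JQ1, at 2505 to 2538, and in the Combination, at 1907 to 2046. The markers of leukocytes, endothelium, fibroblasts and striated muscle summed to at most 1.13 each in every library. The epithelial or luminal markers ESR1, PGR, CDH1, KRT8 and KRT18 summed to 910 to 956 in CAR, 997 to 1056 in JQ1, 645 to 688 in the Combination and 1060 to 1193 in DMSO, of which ESR1, PGR and CDH1 had at most 0.641 each. The part of these shifts in the results was not tested. Many members have processed pseudogenes or share exons with a neighbouring gene, and neither the treatment of reads with several matches nor the use of strand in counting is given in the sources used here. Of the 95 members, 53 share exonic bases with another annotated gene, 32 of them with a gene of the count tables.

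Some of these shared exons are named with their members below, and others are as follows. On the opposite strand NDUFB9 shares up to 426 bases with MTSS1 and 187 with TATDN1, SDHC 420 with CFAP126, ATP5PD 340 with KCTD2, and NDUFB8 325 with HIF1AN. On the same strand COX19 shares up to 229 bases with ADAP1, NDUFC1 162 with MGARP, and COX17 151 with POPDC2. Annotated transcripts without an entry in the count tables share up to 1204 bases with NDUFS1 on the opposite strand and 391 on the same strand, 393 with ATP5MC3, 283 with NDUFV1, 279 with ATP5MC2, 250 with ATP5PO, 182 with COX15 and 145 with SDHD. The values of these members are uncertain to that extent.

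JQ1 and the Combination changed most of the tested members, in both directions, and CAR changed fewer of them. In CAR against DMSO, 24 of 90 members were called higher and 5 lower, with a median log2 fold change of 0.05. Over all genes tested, 27.3% were called higher and 30.1% lower in that comparison, so the share of members called higher, 26.7%, was near the background, and the share called lower, 5.56%, was below it. In JQ1 against DMSO, 41 members were called higher and 20 lower, where 41.5% of all genes were called higher and 42.2% lower. The members' median was 0.12 and the shares were 45.6% and 22.2%. In the Combination against DMSO, 47 were called higher and 22 lower, against 42.6% and 42.8% of all genes, with a median of 0.15 and shares of 52.2% and 24.4%. These comparisons share the DMSO libraries. Called changes of at least 2-fold numbered 0 members in CAR, 2 higher and 3 lower in JQ1, and 2 higher and 3 lower in the Combination. Over all genes, 0.925% were at least 2-fold higher and 3.45% lower in CAR. The same shares were 11.7% and 18.2% for JQ1, and 12.5% and 20.3% for the Combination, and each share of the members, at most 3.33%, was below these.

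The balance of higher and lower calls depended on the scaling and on DMSO replicate 3. Scaling by total count moved the median of all genes by -0.06 in CAR, -0.12 in JQ1 and -0.21 in the Combination, against DMSO, and it gave 10 members higher and 14 lower in CAR, 32 higher and 34 lower in JQ1, and 24 higher and 38 lower in the Combination. Over all genes it gave 20.8% higher and 37.5% lower for CAR, 36.1% and 47.8% for JQ1, and 33.3% and 51.4% for the Combination, so that the members' 35.6% higher in JQ1 was near the background. Upper-quartile scaling gave 37 higher and 28 lower in JQ1, where 38.8% and 45.0% of all genes were called, and 36 and 28 in the Combination, where 39.4% and 45.6% were. Without DMSO replicate 3 the counts were 52 higher and 2 lower in CAR, 51 higher and 17 lower in JQ1, and 54 higher and 19 lower in the Combination. Over all genes, 29.3% were then called higher and 32.2% lower in CAR, 42.0% higher and 42.2% lower in JQ1, and 43.1% higher and 42.7% lower in the Combination. A correction for transcript length and GC content gave 20 higher and 15 lower in CAR, against 29.7% and 31.0% of all genes. The CAR counts also moved with other single libraries, to 13 higher without DMSO replicate 1, to 9 lower without DMSO replicate 2, and to 2 lower without CAR replicate 2 or 3. Members called in the same direction under all 21 alternatives of processing numbered 10 higher and 2 lower in CAR, 32 higher and 17 lower in JQ1, and 24 higher and 19 lower in the Combination. The same was not counted over all genes, so these numbers have no background to be read against. Statements about changed named members below rest on calls kept under all alternatives unless an exception is given. Several members given below as not called were called higher without DMSO replicate 3. These were ATP5F1B, ATP5IF1, ATP5MC2, COX4I1, SDHD, UQCRB, UQCRC1 and UQCRFS1 in CAR, ATP5MC3, COX4I1, SDHB and UQCRB in JQ1, and COX4I1, NDUFA4 and UQCRFS1 in the Combination. Under total count scaling others were called lower, namely NDUFC1 and SDHA in CAR, ATP5IF1, COX5A and CYC1 in JQ1, and ATP5IF1, CYC1, NDUFA4, SDHD and UQCRFS1 in the Combination.

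**Figure D1:**
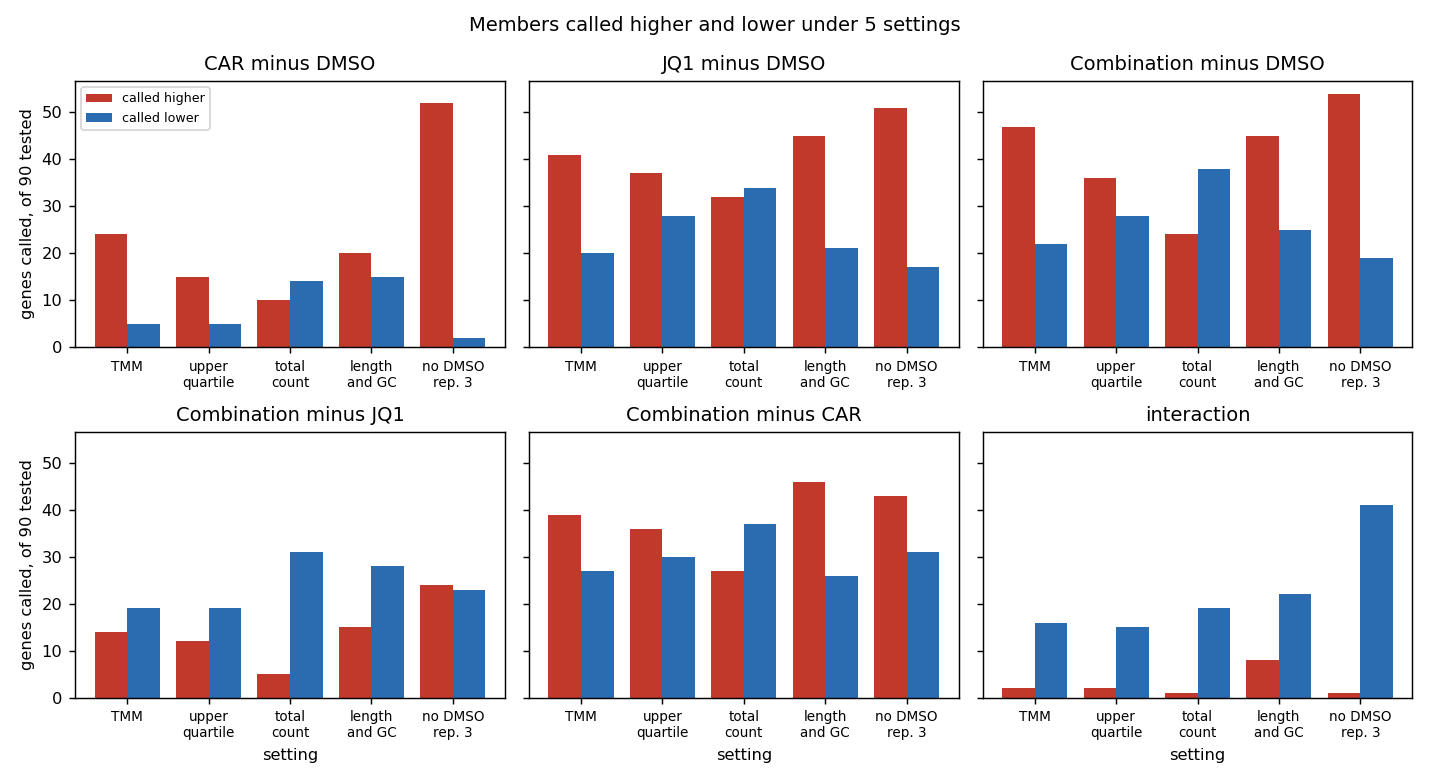
Bars show how many of the 90 tested OXPHOS genes were called higher (red) or lower (blue) in each comparison under 5 settings: TMM scaling, upper-quartile scaling, total count scaling, a length and GC correction, and TMM without DMSO replicate 3. In CAR against DMSO the higher calls range from 10 to 52, while in JQ1 against DMSO they range from 32 to 51.

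The promoters of 77 of the 95 members were matched by symbol in a RefSeq table on GRCh38.p14, 74 of them of tested members. Each window ran from 250 bases before to 50 bases after the start of the gene. NRF1, nuclear respiratory factor 1, is a long-known activator of respiratory chain genes, and its palindrome-like motif was searched on both strands as GCGC, any 1 base, then TGCGC. It was present in 18 of 74 member promoters, 24.3%, and in 11.7% of the 10253 promoters of genes tested. The windows of SDHA, NDUFB4 and NDUFA9 are shown because these genes hold the motif and were among the members that JQ1 changed most in their complexes, SDHA upward and the other two downward. Each is the strand of the gene, 5′ to 3′, and ends at the base before its RefSeq start, with NRF1 motifs in capitals, and in NDUFA9 also a match to the antioxidant response element that begins with TGAC.
SDHA chr5:218120-218319 (+): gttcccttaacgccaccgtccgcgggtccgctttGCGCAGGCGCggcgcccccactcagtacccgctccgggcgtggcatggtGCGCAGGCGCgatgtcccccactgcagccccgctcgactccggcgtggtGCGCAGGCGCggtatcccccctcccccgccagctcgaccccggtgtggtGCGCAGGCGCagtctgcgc
NDUFB4 chr3:120596136-120596335 (+): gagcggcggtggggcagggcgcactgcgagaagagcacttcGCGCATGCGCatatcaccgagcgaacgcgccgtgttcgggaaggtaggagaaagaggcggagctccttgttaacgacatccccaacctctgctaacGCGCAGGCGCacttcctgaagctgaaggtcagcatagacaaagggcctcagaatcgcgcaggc
NDUFA9 chr12:4648994-4649113 (+): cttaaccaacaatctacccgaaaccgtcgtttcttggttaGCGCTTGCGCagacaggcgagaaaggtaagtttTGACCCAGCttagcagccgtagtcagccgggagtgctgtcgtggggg
SDHA thus carried 4 matches in its window, NDUFB4 2 within the printed bases and a further one that crosses the start, and NDUFA9 1. Of the promoters of members called higher in JQ1, 10 of 34 held the NRF1 motif, and of those called lower, 3 of 18. The ETS motif CCGGAAG, bound by GABP, was in 23 of 74 member promoters, 31.1%, and in 19.4% of all. A YY1 motif, AAGATGG followed by CGGC, was in 5 of 74, 6.76%, and in 2.05% of all. The antioxidant response element, searched as TGACNNNGC, was in 10 of 74, 13.5%, and in 14.98% of all, and in 2 of the 21 promoters of members called higher in CAR. CCAAT was in 33.8% of member promoters and 36.6% of all, and the GC box GGGCGG in 62.2% and 70.8%. The last motif and the NRF1 motif can share bases with other GC-rich matches. A match is a description of letters and does not show binding.

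**Figure D2:**
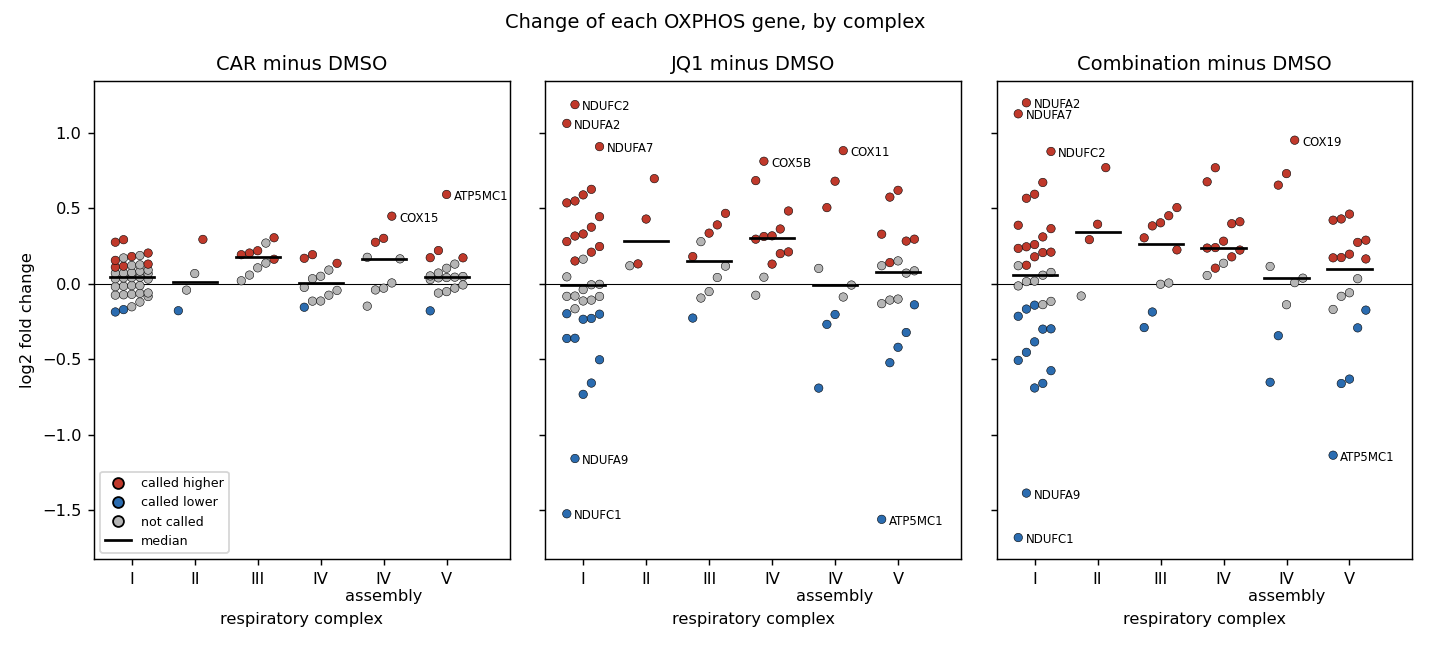
Each point is a tested OXPHOS gene, placed by respiratory complex, with its log2 fold change in CAR, JQ1 or the Combination against DMSO on the vertical axis. Red and blue points were called higher and lower, grey points were not called, and bars mark medians. In JQ1, complex IV has a median of 0.30, and complex I spans from -1.52 to 1.19.

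Complex I, the NADH dehydrogenase, changed in both directions under JQ1 and the Combination, and its subunits did not move as a block. In JQ1, 15 of its 37 subunits were called higher and 11 lower, with a median of -0.01, and in the Combination 16 were higher and 13 lower, with a median of 0.06. Over all genes, 41.5% were called higher and 42.2% lower in JQ1, and 42.6% and 42.8% in the Combination. The higher calls of complex I were near these shares, and its lower calls were below them. Total count scaling turned the complex I counts to 12 higher and 19 lower in JQ1 and to 8 and 19 in the Combination. All genes then gave 36.1% and 47.8% in JQ1, and 33.3% and 51.4% in the Combination. In CAR, 8 were higher and 2 lower, against 20 and 0 without DMSO replicate 3. Of all genes, 27.3% were called higher and 30.1% lower in CAR, and 29.3% and 32.2% without that library. The matrix arm, which takes up NADH and carries the electrons, had 5 higher and 6 lower of 16 in JQ1, or 5 and 9 under total count scaling. The membrane arm, which pumps protons, had 10 higher and 5 lower of 20, where 41.5% and 42.2% of all genes were called, but total count scaling turned this balance to 7 and 10. Arms were assigned from textbook knowledge after the values were known.

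In the matrix arm, the core subunits that bind flavin and iron-sulphur clusters moved apart from each other. NDUFV1, which binds NADH and the flavin cofactor, had 133, 131 and 127 normalised CPM in the CAR libraries, 158, 159 and 161 in the JQ1 libraries, 154, 156 and 156 in the Combination libraries and 129, 119 and 146 in the DMSO libraries. All JQ1 and Combination libraries lay above all DMSO libraries, at 0.28 ± 0.05 in JQ1 (adjusted p = 3.72e-05) and 0.24 ± 0.05 in the Combination, a call that was lost under total count scaling. NDUFS1, the largest iron-sulphur subunit, went the other way, with 151, 154 and 150.1 with CAR, 109, 112 and 107 with JQ1 and 97.8, 100.33 and 98.3 with the Combination, against 145, 141 and 136 with DMSO. The 4 groups did not overlap, and NDUFS1 was 1.29-fold lower in JQ1 (-0.36 ± 0.04, adjusted p = 1.38e-08), 1.42-fold lower in the Combination (-0.51 ± 0.04) and 1.08-fold higher in CAR (0.11 ± 0.04, adjusted p = 0.0176, not called in 3 of the 21 alternatives). NDUFV2, which binds an iron-sulphur cluster, was higher at 0.32 on the log2 scale in JQ1 and 0.36 in the Combination. NDUFV3, an accessory partner of these flavoproteins, was higher at 0.55 in JQ1 and 0.67 in the Combination.

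Accessory subunits of the matrix arm held some of the widest changes. NDUFA2, a small accessory subunit of the NADH module (chr5:140638740-140647785), had 36.0, 31.8 and 31.9 normalised CPM in the CAR libraries, 75.8, 76.5 and 82.4 in the JQ1 libraries, 84.5, 87.6 and 85.8 in the Combination libraries and 36.6, 34.1 and 41.6 in the DMSO libraries. Every JQ1 and Combination library stood above every CAR and DMSO library, and the gene was 2.09-fold higher in JQ1 (1.06 ± 0.06, adjusted p = 5.22e-13) and 2.29-fold higher in the Combination (1.20 ± 0.06, adjusted p = 5.10e-14). Its exons share up to 124 bases with TMCO6 and up to 54 with IK, both on the opposite strand. Over the 12 libraries NDUFA2 had 12820 counts, TMCO6 4420 and IK 24898. Whether the counting used strand is not given in the sources used here. NDUFA7 gave 19.4, 20.8 and 20.1 with CAR, 32.1, 34.0 and 34.6 with JQ1 and 38.2, 39.9 and 38.9 with the Combination, against 15.3, 18.0 and 20.3 with DMSO, higher by 0.91 ± 0.08 in JQ1 and 1.12 ± 0.07 in the Combination. It shares up to 89 exonic bases with RPS28 on the opposite strand. NDUFA9, an accessory subunit near the quinone site, fell instead (chr12:4649095-4694317). It had 62.6, 63.8 and 65.0 with CAR, 27.1, 24.6 and 26.7 with JQ1 and 23.4, 20.3 and 23.1 with the Combination, against 56.4, 58.6 and 59.98 with DMSO. The JQ1 and Combination libraries were all below the other groups, with -1.16 ± 0.06 in JQ1 (2.23-fold lower, adjusted p = 2.26e-14) and -1.39 ± 0.06 in the Combination (2.61-fold lower, adjusted p = 1.42e-15). Same-strand transcripts without an entry in the count tables share up to 206 of its exonic bases. In CAR it was higher at 0.13 ± 0.05, adjusted p = 0.0348, a call kept in 12 of 21 alternatives. NDUFS6, a zinc-binding subunit of the NADH module, had 48.4, 50.5 and 45.5 with CAR, 25.9, 25.8 and 24.7 with JQ1 and 36.3, 29.5 and 31.4 with the Combination, against 40.3, 37.7 and 48.8 with DMSO, and it was lower in both JQ1 (-0.73 ± 0.09) and the Combination (-0.39 ± 0.09). NDUFA5, an accessory subunit of the quinone module, had 42.7, 48.9 and 47.3 with CAR, 36.4, 40.3 and 36.5 with JQ1 and 29.4, 29.2 and 30.4 with the Combination, against 41.9, 42.5 and 48.3 with DMSO, with -0.23 ± 0.06 in JQ1 and -0.58 ± 0.07 in the Combination.

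In the membrane arm, the neighbouring subunits NDUFC1 and NDUFC2 moved in opposite directions. NDUFC1 (chr4:139266880-139302551) had 17.6, 18.5 and 19.3 normalised CPM in the CAR libraries, 7.41, 7.13 and 6.87 in the JQ1 libraries, 6.20, 6.92 and 6.09 in the Combination libraries and 20.1, 17.6 and 23.8 in the DMSO libraries. It was lower in every JQ1 and Combination library, 2.88-fold lower in JQ1 (-1.52 ± 0.10, adjusted p = 5.18e-12) and 3.21-fold lower in the Combination (-1.68 ± 0.11, adjusted p = 1.50e-12), the largest fall of any member there. NDUFC2 (chr11:78068304-78080219) had 9.50, 9.61 and 9.99 with CAR, 24.6, 21.3 and 23.6 with JQ1 and 19.3, 19.9 and 16.8 with the Combination, against 10.7, 9.03 and 10.8 with DMSO. It was 2.27-fold higher in JQ1 (1.19 ± 0.09, adjusted p = 1.86e-11) and 1.83-fold higher in the Combination (0.88 ± 0.09), with no overlap with DMSO, and its exons share bases with a readthrough transcript into KCTD14. In CAR neither was called, at -0.15 ± 0.09 for NDUFC1 (adjusted p = 0.133) and -0.07 ± 0.10 for NDUFC2 (adjusted p = 0.548). NDUFB4, a subunit of the distal membrane arm, had 70.0, 76.0 and 72.1 with CAR, 42.8, 41.8 and 43.0 with JQ1 and 42.2, 42.9 and 39.6 with the Combination, against 68.4, 64.1 and 68.7 with DMSO. It fell by 0.66 ± 0.05 in JQ1 (adjusted p = 4.93e-11) and by 0.69 ± 0.05 in the Combination. NDUFB7 and NDUFB8 of the same arm were lower at -0.50 and -0.36 in JQ1, and at -0.66 and -0.45 in the Combination. NDUFA8, NDUFB2, NDUFB10 and NDUFB11 were higher in JQ1 at 0.53, 0.44, 0.59 and 0.62. NDUFB2 and NDUFB11 share 1239 and 617 exonic bases with BRAF and RBM10 on the opposite strand.

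Over all genes tested, 57.3% were called in CAR, and without DMSO replicate 3 29.3% were called higher and 32.2% lower. Of complex I, 27.0% were called in CAR. There, 27 of 37 transcripts were not called, but without DMSO replicate 3 this fell to 17. The largest change was that of NDUFB9, which binds the acyl carrier protein, with 33.4, 36.9 and 34.1 with CAR, 26.9, 24.9 and 24.2 with JQ1 and 24.6, 26.3 and 25.0 with the Combination, against 27.5, 25.2 and 32.4 with DMSO. It was higher in every CAR library, at 0.29 ± 0.07 (adjusted p = 0.00197). NDUFAB1, the mitochondrial acyl carrier protein that is part of both arms, had 45.3, 41.1 and 40.5 with CAR, 33.7, 35.2 and 35.9 with JQ1 and 39.6, 38.6 and 43.1 with the Combination, against 32.3, 33.2 and 39.5 with DMSO. It was higher by 0.27 ± 0.07 in CAR (adjusted p = 0.00196) and by 0.21 ± 0.07 in the Combination, where the libraries overlapped DMSO and the call was kept in 17 of 21 alternatives. It was not called in JQ1, at -0.00 (adjusted p = 0.954). NDUFA3, in the membrane arm, was the lowest in CAR, with 39.1, 35.6 and 37.0 with CAR, 53.5, 51.0 and 55.5 with JQ1 and 52.5, 54.7 and 50.6 with the Combination, against 40.6, 37.9 and 48.7 with DMSO. The CAR and DMSO libraries overlapped at -0.19 ± 0.07 (adjusted p = 0.0328, kept in 17 of 21 alternatives). It shares up to 157 exonic bases with TFPT on the opposite strand.

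Complex II, succinate dehydrogenase, is the one complex encoded wholly in the nucleus, and it links the citric acid cycle to the chain. SDHA, the flavoprotein that oxidises succinate (chr5:218241-256700), had 219.8, 219 and 215 normalised CPM in the CAR libraries, 359, 357 and 374 in the JQ1 libraries, 382, 380.0 and 384 in the Combination libraries and 216, 219 and 238 in the DMSO libraries. All JQ1 and Combination libraries stood above all CAR and DMSO libraries, 1.62-fold higher in JQ1 (0.70 ± 0.04, adjusted p = 2.13e-13) and 1.70-fold higher in the Combination (0.77 ± 0.04, adjusted p = 3.25e-14), and CAR gave -0.04 ± 0.04 (adjusted p = 0.36). SDHB, the iron-sulphur subunit, had 89.8, 97.2 and 96.1 with CAR, 85.1, 83.9 and 81.8 with JQ1 and 105, 99.2 and 99.58 with the Combination, against 71.2, 74.7 and 85.1 with DMSO. It was higher in CAR (0.29 ± 0.05, adjusted p = 9.58e-05) and in the Combination (0.39 ± 0.05, adjusted p = 7.66e-07) without overlap with DMSO, and in JQ1 it was not called (0.12 ± 0.05, adjusted p = 0.0513) except under 4 alternatives, of which 1 leaves out DMSO replicate 3. SDHC, a membrane anchor, had 92.5, 92.5 and 95.9 with CAR, 146, 145 and 136 with JQ1 and 129.5, 135 and 124 with the Combination, against 103, 106 and 109 with DMSO. It was lower in CAR (-0.18 ± 0.04, adjusted p = 0.00136) and higher in JQ1 (0.43 ± 0.04, adjusted p = 4.95e-09), and its rise in the Combination (0.29 ± 0.04) was not called under total count scaling. SDHD, the other anchor, had 158, 156 and 164 with CAR, 176, 168 and 156 with JQ1 and 144, 145 and 143 with the Combination, against 148, 151 and 158 with DMSO. JQ1 and DMSO libraries overlapped at 0.13 ± 0.04 (adjusted p = 0.00836, kept in 18 of 21 alternatives), and SDHD was not called in CAR (0.07) or the Combination (-0.08, adjusted p = 0.0859).

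Complex III, the cytochrome bc1 complex, had 5 of 10 genes called higher and 0 lower in CAR, with a median of 0.18. Of all genes, 27.3% were called higher and 30.1% lower. For complex III, 0 were lower at an unadjusted p under 0.05 by edgeR and 0 by DESeq2. Without DMSO replicate 3 it had 8 higher, where 29.3% of all genes were. Under total count scaling it had 2 higher, near the 20.8% of all genes, and 0 lower, where 37.5% of all genes were. CYC1, the cytochrome c1 haem protein, had 167, 166 and 164 normalised CPM in the CAR libraries, 127, 128 and 133 in the JQ1 libraries, 133, 134 and 134 in the Combination libraries and 134, 129 and 139 in the DMSO libraries. The CAR libraries lay above all others, at 0.30 ± 0.04 (adjusted p = 7.02e-07), while JQ1 gave -0.05 ± 0.04 (adjusted p = 0.207) and the Combination -0.00 (adjusted p = 0.92). UQCRC2, a core protein of the matrix side, was higher in all 3 comparisons, at 0.22 in CAR, 0.39 in JQ1 and 0.40 in the Combination, with 120.4, 118 and 117 with CAR, 137, 129 and 135 with JQ1 and 135, 136 and 134 with the Combination, against 99.97, 105 and 101 with DMSO. Its partner UQCRC1 averaged 146 ± 2.24 in CAR, 159 ± 2.47 in JQ1, 173 ± 0.273 in Combination and 140.3 ± 7.73 in DMSO (SD, n = 3), higher in JQ1 (0.18, not under total count scaling) and in the Combination (0.30 ± 0.04, adjusted p = 3.77e-07), and not called in CAR (0.06, adjusted p = 0.236). In JQ1, 4 members of complex III were higher and 1 lower, and in the Combination 6 and 2, with medians of 0.15 and 0.26. Over all genes, 41.5% were called higher and 42.2% lower in JQ1, and 42.6% and 42.8% in the Combination. The 4 higher in JQ1 were near that background. Total count scaling moved the counts to 3 and 3 in JQ1 and to 4 and 4 in the Combination. All genes then gave 36.1% and 47.8% in JQ1, and 33.3% and 51.4% in the Combination. UQCRQ, a small subunit near cytochrome b, had the largest rise in both, with 54.4, 59.9 and 53.4 with CAR, 70.1, 67.9 and 69.0 with JQ1 and 68.7, 70.1 and 73.9 with the Combination, against 48.1, 45.8 and 56.0 with DMSO. Its JQ1 and Combination libraries lay above the others, at 0.47 ± 0.06 (adjusted p = 4.72e-07) and 0.50 ± 0.06, and UQCRQ shares up to 239 exonic bases with GDF9, which had 86 counts in all. UQCRFS1, the Rieske iron-sulphur protein, had 117, 111 and 119 with CAR, 90.5, 85.7 and 93.2 with JQ1 and 109, 101 and 106 with the Combination, against 98.7, 98.3 and 118 with DMSO. It was lower in JQ1 at -0.23 ± 0.06 (adjusted p = 0.00171) and not called in CAR (0.14, adjusted p = 0.0558) or the Combination (0.00). UQCRB, a subunit of the quinone pocket, had 122, 140.4 and 130.1 with CAR, 126, 126 and 123 with JQ1 and 106, 101 and 91.3 with the Combination, against 113, 115 and 137 with DMSO. It was lower in the Combination, at -0.29 ± 0.07 (adjusted p = 0.00137), against 0.04 in JQ1 and 0.10 in CAR, which were not called. Reads of UQCRH, the hinge protein, and of its retrocopy UQCRHL may be split, and UQCRHL made up 3.80% in CAR, 4.03% in JQ1, 4.22% in Combination and 3.66% in DMSO of their summed counts.

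Most complex IV subunits were higher in JQ1 and in the Combination, with 10 of 12 called higher and 0 lower in each. The medians were 0.30 and 0.24. Over all genes, 41.5% were called higher and 42.2% lower in JQ1, and 42.6% and 42.8% in the Combination. At an unadjusted p under 0.05, edgeR gave 0 complex IV subunits lower in JQ1 and 0 in the Combination, and DESeq2 called 0 and 0 lower. Under total count scaling the complex IV counts were 7 higher and 1 lower in JQ1 and 4 and 2 in the Combination. Of all genes, 36.1% were then higher and 47.8% lower in JQ1. In the Combination the shares were 33.3% and 51.4%, so the 4 higher were near the background. COX5B, a zinc-binding subunit on the matrix side, had 60.7, 58.6 and 57.9 normalised CPM in the CAR libraries, 115, 109 and 113 in the JQ1 libraries, 114, 102 and 111 in the Combination libraries and 60.2, 57.2 and 74.5 in the DMSO libraries. It was 1.75-fold higher in JQ1 (0.81 ± 0.07, adjusted p = 9.90e-09) and 1.70-fold higher in the Combination (0.77 ± 0.07, adjusted p = 2.10e-08), with every library of both above every CAR and DMSO library. COX6A1, the ubiquitous isoform of subunit VIa, had 158, 158 and 156 with CAR, 274, 273 and 273 with JQ1 and 266, 279 and 269.9 with the Combination, against 164, 153 and 194 with DMSO, at 0.68 ± 0.06 (adjusted p = 2.07e-09) and 0.67 ± 0.06. COX7A2, the widely expressed isoform of subunit VIIa, averaged 86.6 ± 2.06 in CAR, 117 ± 2.31 in JQ1, 111 ± 3.98 in Combination and 83.7 ± 11 in DMSO (SD, n = 3), higher at 0.48 in JQ1 and 0.41 in the Combination. COX7A2L, a relative of COX7A2 that takes part in joining complexes III and IV into supercomplexes, averaged 95.7 ± 1.98 in CAR, 112 ± 1.81 in JQ1, 118 ± 1.94 in Combination and 89.9 ± 7.09 in DMSO, at 0.31 and 0.40. COX8A averaged 231 ± 4.22 in CAR, 275 ± 10.3 in JQ1, 255 ± 7.3 in Combination and 238 ± 13.6 in DMSO, with 0.21 in JQ1 and 0.10 in the Combination, both lost under total count scaling, which gave -0.10 in the Combination, a call kept in 12 of 21 alternatives.

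Other subunits of complex IV changed less. COX4I1, the ubiquitous isoform of subunit IV through which ATP regulates the enzyme, had 211, 221 and 206 with CAR, 211, 208 and 223 with JQ1 and 235, 226 and 224 with the Combination, against 196, 189 and 239 with DMSO. The CAR, JQ1 and Combination libraries each overlapped those of DMSO, and it was not called in CAR (0.03 ± 0.07), in JQ1 (0.04 ± 0.07, adjusted p = 0.556) or in the Combination (0.13 ± 0.07, adjusted p = 0.0674). COX5A, its neighbour, had 77.9, 76.2 and 77.8 with CAR, 66.5, 62.1 and 63.9 with JQ1 and 77.4, 83.9 and 75.7 with the Combination, against 58.3, 67.9 and 76.9 with DMSO. It was called higher in CAR (0.19 ± 0.07, adjusted p = 0.0269, kept in 12 of 21 alternatives) and in the Combination (0.22 ± 0.07, kept in 18 of 21), each overlapping DMSO, and not in JQ1 (-0.08 ± 0.07, adjusted p = 0.325). NDUFA4 had 74.9, 77.8 and 75.6 with CAR, 108, 102 and 102 with JQ1 and 87.1, 89.6 and 87.4 with the Combination, against 82.0, 82.6 and 89.8 with DMSO. It was lower in CAR (-0.16 ± 0.04, adjusted p = 0.00519), higher in JQ1 (0.29 ± 0.04, adjusted p = 2.44e-06), and not called in the Combination (0.05, adjusted p = 0.264). Its hypoxia-induced paralog NDUFA4L2 had 4 counts in CAR, 0 in JQ1, 1 in the Combination and 1 in DMSO, summed over the 3 libraries of each. In CAR the counts for complex IV were 3 higher and 1 lower of 12, and under total count scaling 0 higher and 4 lower. The length and GC correction gave 1 higher and 6 lower, and leaving out DMSO replicate 3 gave 6 higher and 1 lower. The shares of all genes were 27.3% higher and 30.1% lower, and 20.8% and 37.5% under total count scaling. They were 29.7% and 31.0% under the length and GC correction, and 29.3% and 32.2% without DMSO replicate 3.

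Among the COX-named assembly factors, which insert haem and copper or stabilise early intermediates without staying in the enzyme, 3 of 9 were higher in each drug group against DMSO, a share of 33.3%, where 27.3% of all genes were called higher in CAR, 41.5% in JQ1 and 42.6% in the Combination. In CAR 0 were lower (0 at an unadjusted p under 0.05 by edgeR and 0 by DESeq2), in JQ1 3 and in the Combination 2. Of all genes, 30.1% were called lower in CAR, 42.2% in JQ1 and 42.8% in the Combination. Total count scaling gave 3 higher and 1 lower in CAR, where 20.8% and 37.5% of all genes were called. COX15, which makes haem A, was higher in all 3, with 63.3, 65.7 and 60.5 with CAR, 63.2, 68.6 and 65.4 with JQ1 and 72.0, 74.7 and 71.8 with the Combination, against 47.0, 44.4 and 47.6 with DMSO. Its DMSO libraries lay below every treated library, and the changes were 0.45 ± 0.05 in CAR (adjusted p = 1.25e-07), 0.50 ± 0.05 in JQ1 and 0.65 ± 0.05 in the Combination. COX10, which acts just before COX15 in haem A synthesis, had 42.6, 42.9 and 43.3 with CAR, 23.7, 19.6 and 21.5 with JQ1 and 21.1, 23.4 and 22.1 with the Combination, against 35.2, 35.7 and 33.9 with DMSO. It was higher in CAR (0.30 ± 0.06, adjusted p = 0.000183) and lower in JQ1 (-0.69 ± 0.06, adjusted p = 1.85e-09) and the Combination (-0.65 ± 0.07), and no library of these groups overlapped DMSO. COX11, a copper chaperone, had 49.2, 49.3 and 49.3 with CAR, 89.0, 93.2 and 89.0 with JQ1 and 82.1, 82.8 and 79.3 with the Combination, against 49.2, 47.6 and 50.5 with DMSO, higher at 0.88 ± 0.04 in JQ1 and 0.73 ± 0.04 in the Combination, and 0.00 in CAR. COX11 shares up to 722 exonic bases with TOM1L1 on the opposite strand. COX19, which serves copper delivery, had 15.4, 14.7 and 14.1 with CAR, 18.9, 19.1 and 20.6 with JQ1 and 22.7, 23.7 and 24.4 with the Combination, against 12.6, 10.9 and 12.96 with DMSO, at 0.27 in CAR, 0.68 in JQ1 and 0.95 in the Combination. COX20 was lower in JQ1 (-0.27) and the Combination (-0.34), but it shares 2017 exonic bases with HNRNPU, a gene with 156959 counts over the 12 libraries. COX14, COX16, COX17 and COX18 lay between -0.20 and 0.17 in the comparisons with DMSO, of which the fall of COX14 in JQ1 was called (adjusted p = 0.0366, kept in 12 of 21 alternatives).

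Complex V had its largest change in the genes of the c ring, the rotor through which protons pass. ATP5MC1, ATP5MC2 and ATP5MC3 encode the same mature c subunit behind different import sequences. ATP5MC1 (chr17:48892765-48895871) had 87.1, 97.95 and 88.4 normalised CPM in the CAR libraries, 21.2, 20.4 and 19.9 in the JQ1 libraries, 25.8, 30.2 and 26.6 in the Combination libraries and 58.3, 58.1 and 65.1 in the DMSO libraries. The 4 groups did not overlap. CAR was 1.51-fold higher than DMSO (0.59 ± 0.06, adjusted p = 2.29e-08), JQ1 was 2.95-fold lower (-1.56 ± 0.07, adjusted p = 3.40e-15) and the Combination was 2.20-fold lower (-1.14 ± 0.07, adjusted p = 4.49e-13). These were the largest rise in CAR and the largest fall in JQ1 among the 90 members. ATP5MC2 had 127, 127 and 132 with CAR, 87.6, 88.7 and 92.6 with JQ1 and 74.7, 77.8 and 75.2 with the Combination, against 112, 113 and 135 with DMSO. It was lower in JQ1 (-0.42 ± 0.06, adjusted p = 4.52e-07) and further down in the Combination (-0.66 ± 0.06, adjusted p = 4.60e-10), and not called in CAR (0.10 ± 0.05, adjusted p = 0.114) except without DMSO replicate 3. ATP5MC3 had 178, 178 and 174 with CAR, 167, 169 and 162 with JQ1 and 178, 177 and 175 with the Combination, against 145, 153 and 172 with DMSO. It was higher in CAR (0.17 ± 0.05) and in the Combination (0.17 ± 0.05), neither of which was called under total count scaling, where the Combination gave -0.04. It was not called in JQ1 (0.08 ± 0.05, adjusted p = 0.103). Of the summed counts of these genes, ATP5MC1 made up 23.0% ± 1.14 in CAR, 7.42% ± 0.232 in JQ1, 9.83% ± 0.67 in Combination and 18.0% ± 0.508 in DMSO (SD, n = 3). ATP5MC2 made up 32.5% ± 0.907 in CAR, 32.4% ± 1.11 in JQ1, 27.1% ± 0.227 in Combination and 35.5% ± 0.651 in DMSO (SD, n = 3). ATP5MC3 made up 44.5% ± 0.696 in CAR, 60.1% ± 0.964 in JQ1, 63.1% ± 0.865 in Combination and 46.5% ± 0.615 in DMSO (SD, n = 3). These shares are ratios within a library and need no scaling, but they weigh transcripts by length.

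**Figure D3:**
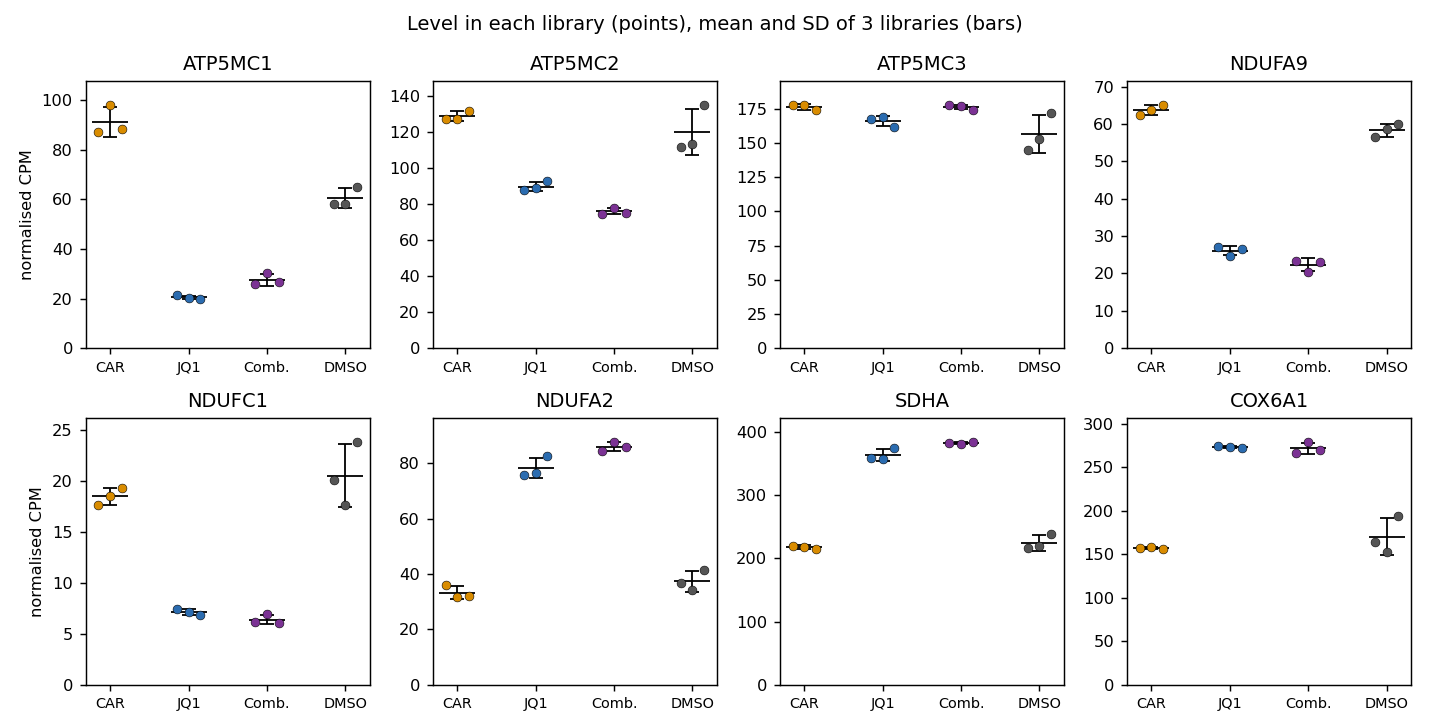
Normalised CPM of 8 members in each of the 12 libraries, with the mean and SD of the 3 libraries of a group as bars. All vertical axes start at 0. ATP5MC1 lies between 19.9 and 30.2 in the JQ1 and Combination libraries and between 58.1 and 97.95 in the others, while SDHA and NDUFA2 are high in the JQ1 and Combination libraries.

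The alpha, beta and gamma subunits of the catalytic head were higher in JQ1, whereas the b subunit of the stalk was lower. ATP5F1B, the catalytic beta subunit, had 767, 778 and 775 normalised CPM in the CAR libraries, 1159, 1136 and 1151 in the JQ1 libraries, 1026, 1045 and 1019 in the Combination libraries and 717, 738 and 791 in the DMSO libraries. Its JQ1 and Combination libraries lay above all others, at 0.62 ± 0.04 (adjusted p = 4.44e-13) and 0.46 ± 0.04 (adjusted p = 7.25e-11), and CAR gave 0.05 ± 0.04 (adjusted p = 0.269). ATP5F1A, the alpha subunit, averaged 677 ± 7.42 in CAR, 867 ± 15.3 in JQ1, 835 ± 2.7 in Combination and 691 ± 38.9 in DMSO (SD, n = 3), at 0.33 ± 0.04 in JQ1 (adjusted p = 4.16e-08) and 0.27 ± 0.04 in the Combination, where the call was lost under total count scaling. ATP5F1C, the gamma subunit that turns within the head, had 216, 221 and 211 with CAR, 337, 337 and 333 with JQ1 and 310.1, 304 and 297 with the Combination, against 216, 214 and 247 with DMSO, at 0.57 ± 0.04 (adjusted p = 8.45e-11) and 0.43 ± 0.04. ATP5PB, the b subunit of the peripheral stalk, had 215, 222 and 223 with CAR, 131, 129 and 134 with JQ1 and 125, 119 and 122 with the Combination, against 189, 174 and 204 with DMSO. It was higher in CAR (0.22 ± 0.05, adjusted p = 0.000307) and lower in JQ1 (-0.52 ± 0.05, adjusted p = 7.17e-10) and the Combination (-0.63 ± 0.05), without overlap with DMSO, and shares up to 322 exonic bases with WDR77 on the opposite strand. ATP5PD, the d subunit of the same stalk, was higher at 0.28 in JQ1 and 0.42 in the Combination. ATP5IF1, which inhibits ATP hydrolysis by the enzyme, had 38.8, 38.3 and 39.2 with CAR, 34.8, 34.9 and 35.2 with JQ1 and 35.3, 35.4 and 36.0 with the Combination, against 36.2, 33.9 and 42.9 with DMSO, and no comparison with DMSO called it (0.04, -0.11 and -0.08 in CAR, JQ1 and the Combination). ATP5MF, a membrane subunit, was the lowest in CAR, with 38.4, 38.0 and 33.5 with CAR, 45.3, 43.2 and 46.8 with JQ1 and 47.4, 46.1 and 46.9 with the Combination, against 38.3, 38.5 and 47.7 with DMSO, at -0.18 ± 0.07 (adjusted p = 0.0421, kept in 8 of 21 alternatives). In all, complex V had 4 higher and 1 lower of 18 in CAR, 6 higher and 5 lower in JQ1, and 9 higher and 5 lower in the Combination. All genes gave 27.3% and 30.1%, 41.5% and 42.2%, and 42.6% and 42.8%, and in CAR and JQ1 both shares of complex V were lower. Without DMSO replicate 3 the complex V counts became 12 and 0, 10 and 4, and 10 and 4. All genes then gave 29.3% and 32.2%, 42.0% and 42.2%, and 43.1% and 42.7%. With total count scaling complex V had 2 and 3, 5 and 8, and 3 and 9. The shares of all genes were then 20.8% and 37.5%, 36.1% and 47.8%, and 33.3% and 51.4%.

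**Figure D4:**
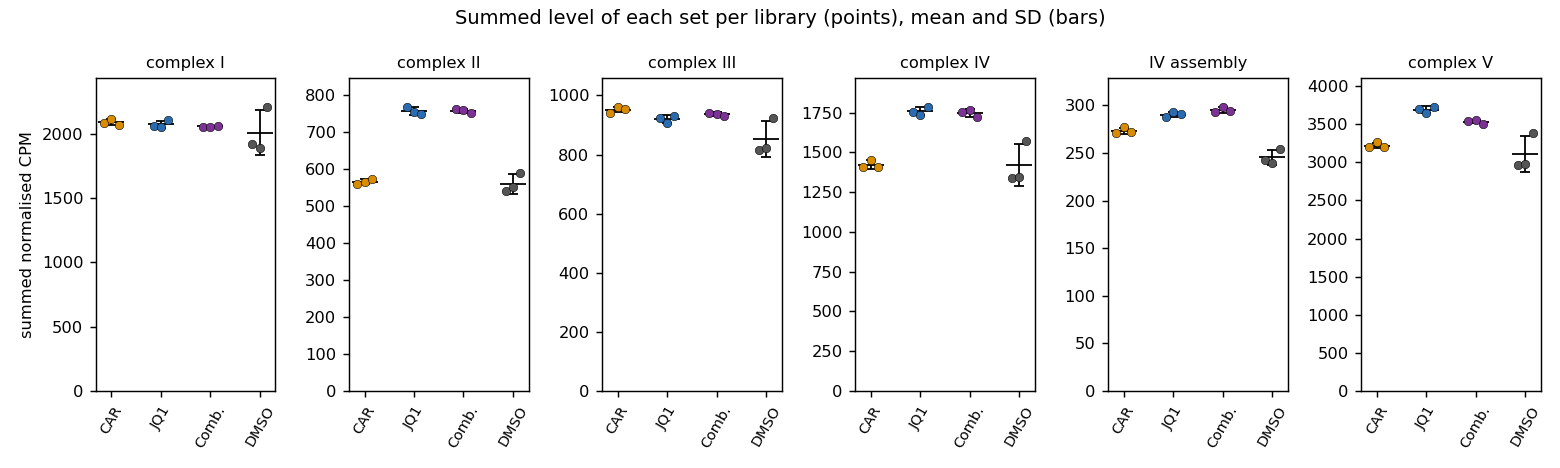
Summed normalised CPM of all genes of each complex in each library (points), with mean and SD of the 3 libraries per group. Vertical axes start at 0. On this scale, complexes II, IV and V are higher in the JQ1 libraries than in every DMSO library, and the complex I sums of every treated group overlap those of DMSO.

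Summed over its genes, complex I had 2092 ± 25.3 normalised CPM in CAR, 2075 ± 26.1 in JQ1, 2059 ± 4.11 in the Combination and 2009 ± 176 in DMSO (SD, n = 3), and DMSO replicate 3 alone reached 2211. Complex II summed to 565 ± 5.81 in CAR, 756 ± 9.86 in JQ1, 757 ± 5.42 in the Combination and 560 ± 26.6 in DMSO, so that the JQ1 and Combination libraries stood apart from both other groups. Complex III summed to 952 ± 9.95 in CAR, 920.1 ± 12.5 in JQ1, 937 ± 5.47 in the Combination and 853 ± 59.9 in DMSO, whose replicate 3 overlapped JQ1. For complex IV the sums were 1422 ± 28.1 in CAR, 1758 ± 25.5 in JQ1, 1746 ± 24.4 in the Combination and 1419 ± 133 in DMSO. For complex V they were 3221 ± 34.9 in CAR, 3690 ± 43.1 in JQ1, 3535 ± 23.0 in the Combination and 3108 ± 238 in DMSO. As a share of the raw counts of a library, all 95 members together took 0.866% to 0.883% in CAR, 0.925% to 0.943% in JQ1, 0.863% to 0.867% in the Combination and 0.833% to 0.961% in DMSO. DMSO replicate 3 gave the highest of all 12 values, and DMSO replicates 1 and 2, at 0.837% and 0.833%, the lowest. The separation of single complexes also depended on the scaling. As raw shares, complex V took 0.359% to 0.367% in JQ1, 0.327% to 0.329% in the Combination and 0.317% to 0.364% in DMSO, so both overlapped DMSO. Complex IV took 0.171% to 0.176% in JQ1, above all DMSO libraries at 0.143% to 0.169%, and 0.160% to 0.163% in the Combination, which overlapped them. A sum is set mostly by its most abundant genes.

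The Combination differed from JQ1 alone in fewer members than either differed from DMSO. Of 90 members, 14 were higher and 19 lower in the Combination than in JQ1, where 26.0% of all genes were called higher and 25.9% lower. The median was 0.00, and no member reached a 2-fold difference. Total count scaling gave 5 higher and 31 lower, against 17.6% and 36.0% of all genes. Leaving out DMSO replicate 3, which is in neither group but in the shared fit, gave 24 higher, where 29.6% of all genes were called higher, and 23 lower, where 29.0% were called lower. The higher calls numbered 6 without JQ1 replicate 1 and 9 without Combination replicate 2. ATP5MC1 had the largest rise, 0.42 ± 0.08 (adjusted p = 8.59e-05), with 25.8, 30.2 and 26.6 normalised CPM in the Combination libraries and 21.2, 20.4 and 19.9 in the JQ1 libraries. NDUFS6 (0.35 ± 0.09), COX5A (0.30 ± 0.07) and SDHB (0.27 ± 0.05) were also higher, as was COX19 (0.27 ± 0.07), in all 21 alternatives. UQCRFS1 was higher at 0.23 ± 0.06 except under total count scaling. The largest falls were those of NDUFA5 (-0.35 ± 0.07, adjusted p = 0.000245), UQCRB (-0.33 ± 0.07, adjusted p = 0.00112) and NDUFB10 (-0.33 ± 0.06). NDUFC2 (-0.31 ± 0.08), NDUFA4 (-0.24 ± 0.04), ATP5MC2 (-0.24 ± 0.06), SDHD (-0.21 ± 0.04) and ATP5F1B (-0.16 ± 0.04) were lower as well. In each of these members, the 3 Combination libraries did not overlap the 3 JQ1 libraries, which was so for 62.3% of all genes tested.

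Against CAR, the Combination had 39 members higher and 27 lower, where 42.4% of all genes were called higher and 43.0% lower, and total count scaling gave 27 and 37, against 36.8% and 48.8%. NDUFA2 was 2.58-fold higher (1.37 ± 0.06, adjusted p = 5.61e-15), COX5B 1.84-fold higher (0.88 ± 0.07) and SDHA 1.75-fold higher (0.81 ± 0.04), and in complexes III and V the largest rises were those of UQCRQ (0.34) and ATP5F1C (0.49). ATP5MC1 was 3.31-fold lower (-1.73 ± 0.06, adjusted p = 1.38e-16), NDUFC1 2.88-fold lower (-1.53 ± 0.11) and NDUFA9 2.86-fold lower (-1.52 ± 0.06). UQCRB fell by 0.40 ± 0.07 and CYC1 by 0.31 ± 0.04. For complex IV, 9 of 12 subunits were higher and 0 lower, with 0 lower at an unadjusted p under 0.05 and 0 lower by DESeq2, or 6 and 1 under total count scaling.

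The interaction asks whether the Combination differs from the sum, on the log2 scale, of the changes that CAR and JQ1 made alone. It was called negative for 16 members and positive for 2, with 18.2% of all genes called negative and 20.1% positive. All 4 groups enter it, DMSO replicate 3 included. Without that library 41 members were negative, as were 22.3% of all genes, and 1 positive, as were 23.8%. The length and GC correction gave 22 negative and 8 positive, where 19.7% and 22.6% of all genes were called. The 12 negative members called in all 20 alternatives of this contrast had values between -0.20 for UQCRC2 and -0.44 for UQCRB. UQCRB was the lowest (-0.44 ± 0.10, adjusted p = 0.00291), followed by NDUFA5 (-0.41 ± 0.09, adjusted p = 0.00146), NDUFA9 (-0.36 ± 0.08, adjusted p = 0.00172), COX7C (-0.35 ± 0.07, adjusted p = 0.000541) and ATP5MC2 (-0.34 ± 0.08, adjusted p = 0.00187). COX7C, a small membrane subunit of complex IV, had 112, 115 and 115 with CAR, 129, 129 and 134 with JQ1 and 121, 117 and 107 with the Combination, against 96.4, 98.05 and 110.4 with DMSO, so that the Combination libraries overlapped those of CAR and lay below those of JQ1. NDUFA2 was positive (0.31 ± 0.09, adjusted p = 0.00895), with -0.17 in CAR, 1.06 in JQ1 and 1.20 in the Combination. ATP5MC1, in which CAR and JQ1 alone had changes of opposite sign, was not called in the interaction (-0.17 ± 0.10, adjusted p = 0.184).

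**Figure D5:**
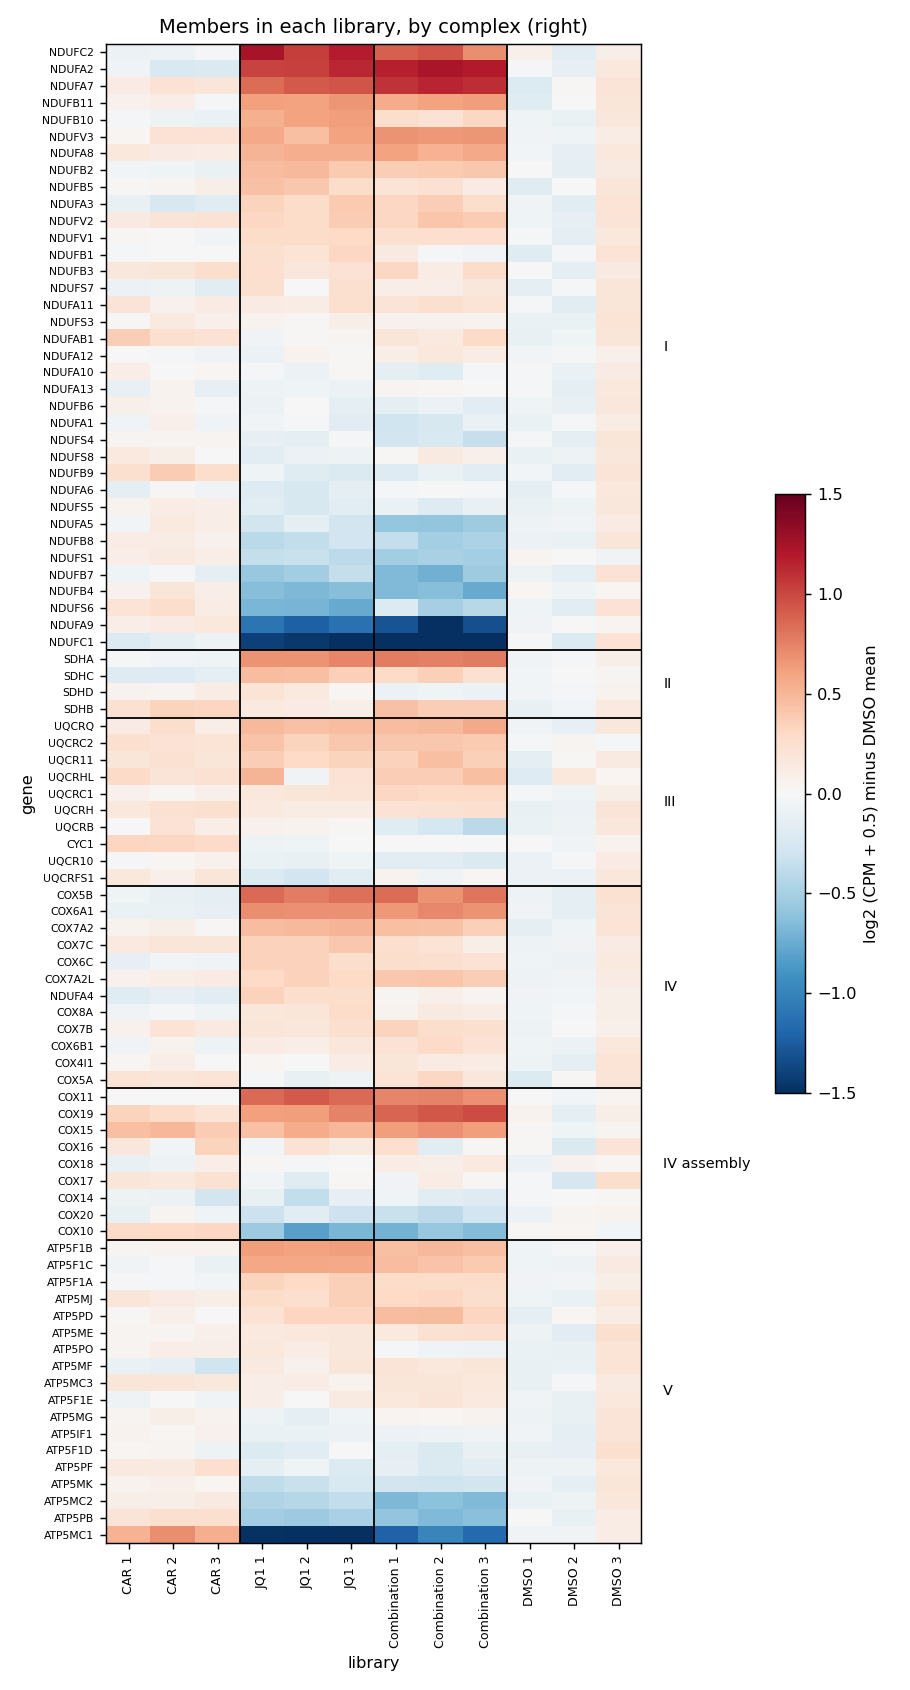
Each row is a tested OXPHOS gene and each column a library, grouped by complex from I at the top to V at the bottom, and the colour is log2 of normalised CPM + 0.5 minus the mean of the DMSO libraries, limited to 1.5 in either direction. Rows within a complex are ordered by the JQ1 mean. ATP5MC1, NDUFC1 and NDUFA9 are blue in all JQ1 and Combination columns, and DMSO replicate 3 is redder than the other DMSO libraries in most rows.

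Genes that build or feed the chain without being part of it were described from lists chosen beside the members. Of 58 assembly factors, among them the 9 COX-named members, 54 were tested. In CAR, 30 were higher and 5 lower, with a median of 0.21, where 27.3% and 30.1% of all genes were called. Total count scaling gave 23 and 6, where 20.8% and 37.5% were called. In JQ1, 20 were higher and 23 lower, with a median of -0.01 (all genes 41.5% and 42.2%), and in the Combination 22 and 23, with a median of -0.04 (all genes 42.6% and 42.8%). COA6 and COA7, which assist copper and haem handling in complex IV assembly, had the largest rises in CAR. COA6 had 30.9, 34.2 and 33.7 with CAR, 6.83, 6.35 and 5.53 with JQ1 and 7.91, 5.81 and 6.85 with the Combination, against 14.3, 15.8 and 17.3 with DMSO, at 1.06 ± 0.08 in CAR and -1.33 ± 0.11 in JQ1. COA7 had 74.0, 72.4 and 73.1 with CAR, 12.5, 12.6 and 12.4 with JQ1 and 15.6, 15.6 and 15.6 with the Combination, against 45.0, 48.0 and 42.5 with DMSO, at 0.70 ± 0.05 in CAR and -1.85 ± 0.06 in JQ1. TMEM242, a factor of ATP synthase assembly, had 8.90, 9.55 and 10.04 with CAR, 28.7, 28.9 and 28.997 with JQ1 and 42.1, 40.5 and 39.7 with the Combination, against 8.09, 7.92 and 8.90 with DMSO, at 1.80 ± 0.07 in JQ1 and 2.29 ± 0.07 in the Combination. ATPAF2, a chaperone of the synthase's head, had 11.3, 12.5 and 11.6 with CAR, 45.6, 42.9 and 44.0 with JQ1 and 35.6, 32.9 and 33.3 with the Combination, against 17.3, 18.3 and 18.5 with DMSO, lower in CAR (-0.61 ± 0.07) and higher in JQ1 (1.29 ± 0.06). NDUFAF6, a complex I assembly factor, was the lowest in the Combination at -1.68.

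Of 15 genes of coenzyme Q synthesis and cytochrome c, 4 were higher and 0 lower in CAR, with 2 lower at an unadjusted p under 0.05, 0 lower by DESeq2 and 3 lower under total count scaling. The share of higher calls, near 27.3% of all genes, moved with DMSO replicate 3, without which 7 were higher and 1 lower. Of all genes, 30.1% were called lower in CAR, and 37.5% under total count scaling. Without DMSO replicate 3, 29.3% of all genes were called higher and 32.2% lower. In JQ1, 5 were higher and 7 lower, where 41.5% and 42.2% of all genes were called. In the Combination 7 were higher and 4 lower, where 42.6% and 42.8% were called. The medians of the list were 0.10 in CAR, -0.12 in JQ1 and 0.09 in the Combination. CYCS, cytochrome c itself, had 240.1, 248 and 257 with CAR, 169.9, 163 and 157 with JQ1 and 188, 195 and 185 with the Combination, against 172, 172 and 191 with DMSO. The CAR libraries lay above all others (0.48 ± 0.04, adjusted p = 1.05e-08), and JQ1 lay lower than DMSO at -0.12 ± 0.05 (adjusted p = 0.0156, kept in 16 of 21 alternatives). PDSS1, which makes the isoprenoid tail of coenzyme Q, had 19.98, 20.6 and 22.5 with CAR, 4.05, 5.69 and 3.78 with JQ1 and 5.14, 5.75 and 4.74 with the Combination, against 11.7, 12.8 and 12.96 with DMSO, at 0.75 ± 0.09 in CAR and -1.47 ± 0.12 in JQ1. COQ3, a methyltransferase of the pathway, was the lowest in JQ1 at -1.55, and COQ8A, an atypical kinase that supports it, the highest at 1.51.

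Of 21 regulators of the chain's expression, 14 were higher and 0 lower in CAR, with a median of 0.22, where 27.3% and 30.1% of all genes were called. At an unadjusted p under 0.05 edgeR gave 0 lower, and DESeq2 called 0 lower. Under total count scaling 12 regulators were higher and 0 lower, where 20.8% and 37.5% of all genes were called. In JQ1, 8 were higher and 8 lower, against 41.5% and 42.2% of all genes, and in the Combination 6 and 7, against 42.6% and 42.8%, with medians of -0.00 and 0.07. PPRC1, a coactivator of the PGC-1 family, had 159.8, 152 and 159 with CAR, 33.5, 32.5 and 36.0 with JQ1 and 48.5, 50.9 and 49.3 with the Combination, against 89.1, 93.7 and 83.3 with DMSO. Its 4 groups did not overlap, at 0.82 ± 0.05 in CAR (adjusted p = 4.24e-12), -1.38 ± 0.05 in JQ1 (adjusted p = 2.55e-16) and -0.84 ± 0.05 in the Combination. PPARGC1B, PGC-1beta, had 10.1, 9.50 and 10.6 with CAR, 3.57, 3.98 and 3.32 with JQ1 and 3.90, 4.30 and 4.10 with the Combination, against 5.67, 6.38 and 5.92 with DMSO, with 0.75, -0.72 and -0.54 in CAR, JQ1 and the Combination. PPARGC1A, PGC-1alpha, was low, with 5.09, 5.29 and 5.46 with CAR, 6.35, 7.79 and 6.93 with JQ1 and 11.5, 10.4 and 9.48 with the Combination, against 5.72, 5.74 and 4.20 with DMSO, and higher in the Combination at 1.01 ± 0.12 (adjusted p = 7.35e-08). ESRRA, the nuclear receptor that these coactivators serve, was higher in all 3, at 0.67, 0.72 and 0.92 in CAR, JQ1 and the Combination. NRF1, whose motif is shown above, averaged 27.7 ± 3.28 in CAR, 19.9 ± 1.21 in JQ1, 23.1 ± 1.5 in Combination and 21.3 ± 0.62 in DMSO (SD, n = 3), higher in CAR (0.38 ± 0.08, adjusted p = 0.000272) and not called in JQ1 (-0.10) or the Combination (0.11). GABPA, the DNA-binding part of GABP, was higher in JQ1 (0.67) and the Combination (0.58), and shares 195 exonic bases with ATP5PF on the opposite strand. TFAM, which packages and transcribes mitochondrial DNA, was higher in CAR (0.22) and lower in JQ1 (-0.42) and the Combination (-0.30). POLG, the catalytic mitochondrial DNA polymerase, had the largest rise of the list in the Combination, with 133, 131 and 127 with CAR, 201, 203 and 204 with JQ1 and 316, 303 and 313 with the Combination, against 122, 122 and 115 with DMSO at 1.38 ± 0.04.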

How the data were processed

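The deposited tables give raw whole-number read counts per gene symbol, 1 table for each of 12 poly(A) RNA libraries, with no normalisation by the authors. Trimmomatic, HISAT2, HTSeq and the hg38 build are listed without versions, per the submitters' processing notes. The labels describe a stranded library kit, but they state neither the strand setting nor the annotation of the counting. Of 16384 symbols, 12645 passed edgeR's expression filter (minimum count 10, minimum total 15). TMM scaling and a robust quasi-likelihood fit of 4 groups over all 12 libraries followed (edgeR 4.0.16, limma 3.58.1, R 4.3.3), leaving 8 residual degrees of freedom. The common biological coefficient of variation was 0.0408. Benjamini-Hochberg adjustment covered all genes tested in each of 6 contrasts, and the fit was tested on simulated data. Depth ran from 17449715 to 19754456 counts per library. Levels are CPM on the TMM-scaled library size, and floors cover counting error only.

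Alternatives were RLE, total count and upper-quartile scaling, no expression filter, DESeq2 1.42.0, the replicate number as a block, only the groups compared, a correction for transcript length and GC content with and without the block, and each library left out. Named members are, per contrast and complex, the called genes with the largest and the smallest change and a mean of at least 5 CPM, a fixed set of well-known subunits, and other members given with their value. In the counts, medians and fits all members are included, but 1 is not reported by name here and has no line in the per-gene plot. The members and lists were chosen with earlier results of these data known. Transcript lengths and exon overlaps were taken from GENCODE v29 and promoters from a RefSeq table on GRCh38.p14.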

Additional observations from a re-analysis of the deposited data

Results flagged for a closer look

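In 18 members the effect of JQ1 differed with and without CAR, by the edgeR quasi-likelihood test of the interaction over all genes. The 16 negative members, 17.8% of 90, were near the 18.2% of all genes called negative, and the 2 positive ones, 2.22%, were below the 20.1% called positive. In 16 the Combination lay below the sum of the single-drug changes on the log2 scale. In complex I these were NDUFA5 (-0.41), NDUFA9 (-0.36), NDUFB9 (-0.29), NDUFS1 (-0.25) and NDUFB10 (-0.25). In complex II SDHD gave -0.28, and in complex III UQCRB gave -0.44, CYC1 -0.26 and UQCRC2 -0.20. In complex IV COX7C gave -0.35, and the assembly factors COX15 and COX10 gave -0.30 and -0.26. In complex V the values were -0.34 for ATP5MC2, -0.33 for ATP5PB, -0.27 for ATP5PO and -0.20 for ATP5F1B. In the other two the Combination lay above the sum: NDUFA2 at 0.31 and NDUFA6 at 0.25. All 18 use the DMSO libraries. Without DMSO replicate 3, all 16 negative members were still called and 1 of the 2 positive ones was, among 41 negative and 1 positive calls. NDUFB9, NDUFB10, COX10, ATP5PO and NDUFA6 were among the members whose call was not kept under every alternative, NDUFB9 keeping it in 10 of 20.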

How the results depend on the processing

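For 36 named members over 6 contrasts, 4222 of 4500 alternative values kept the direction and the side of the threshold, 131 lost the call, 143 gained one and 4 reversed. The reversed values were all in the Combination against DMSO under total count scaling, at -0.036 for ATP5MC3, -0.035 for ATP5MF, -0.030 for COX7C and -0.10 for COX8A. Total count scaling also gave 10 members higher and 14 lower in CAR against DMSO, 34 lower in JQ1, 24 higher and 38 lower in the Combination, 5 higher and 31 lower in the Combination against JQ1, and 1 positive in the interaction. Upper-quartile scaling gave 15 higher in CAR. Fitting only the groups compared gave 2 lower in CAR and 24 higher in the Combination against JQ1, and DESeq2 gave 1 positive interaction. The length and GC correction gave 15 lower in CAR and 8 positive interactions, and together with the replicate block 15 and 7, and 29 lower in the Combination against JQ1. The causes were not tested.

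With single libraries left out, CAR against DMSO ranged over 13 to 52 higher and 2 to 9 lower, the Combination against JQ1 over 6 to 24 higher, and the interaction over 1 to 7 positive and 13 to 41 negative. DMSO replicate 3 gave the 52, the 24 and the 41, DMSO replicate 1 the 13, DMSO replicate 2 the 9 lower and the 7 positive, and JQ1 replicate 1 the 6. Replicate numbers showed no clear pairing of the libraries: 3 of 18 pairs with the same number had correlated deviations over 0.1, with a range of -0.31 to 0.26. With 3 libraries a group, and DMSO replicate 3 standing apart, a weak pairing might not show in these values. The replicate block gave 24 higher and 4 lower in CAR, 42 and 20 in JQ1, 47 and 22 in the Combination, 15 and 19 in the Combination against JQ1, 40 and 28 against CAR, and 2 and 16 in the interaction. Depth limits statements on the 5 members with 6 to 37 counts in all.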
